A study of Sus scrofa with 4 samples.

Results

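The nuclear genes of oxidative phosphorylation were followed through single-cell RNA-seq of pig pancreatic ductal organoids (PPDO) and of primary porcine pancreas. Members were the genes whose name in the feature tables began with NDUFA, NDUFB, NDUFC, NDUFS, NDUFV, UQCR, COX4 to COX8 or ATP5, or was SDHA to SDHD, leaving out NDUFA4L2. This gave 73 genes of 30282, of which 30 encode complex I subunits, 8 complex I assembly factors (NDUFAF), 3 complex II subunits, 5 complex III subunits, 13 complex IV subunits or their relatives and 14 subunits or regulators of ATP synthase. The rule itself is on names and uses no measured value. For 5 further genes, NDUFA7, NDUFB1, SDHA, UQCR11 and COX7B, only a separate gene name table gave such a name, and these are described beside the members but not counted with them.

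Oxidative phosphorylation passes electrons from NADH through complex I, and from succinate through complex II, to complex III, cytochrome c and complex IV, which reduces oxygen. Complexes I, III and IV pump protons across the inner mitochondrial membrane, and ATP synthase uses that gradient to make ATP. Most subunits are encoded in the nucleus and a minority in mitochondrial DNA (mtDNA). Several complex IV subunits exist in alternative forms from separate genes, such as COX7A1, the heart and muscle form, and COX7A2, the broadly expressed form.

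The study held 4 libraries. PPDO 1 and PPDO 2 were organoids grown from ducts of different pigs, at passages that the study counts as transitioning or late. The study calls the pigs late postnatal and adult, but its methods name both samples by ages that its own stage limits count as late postnatal. Which library stems from which pig or passage is not given in the labels. The organoids were cultured in a basement membrane extract, in medium with N2, B27, A83-01, prostaglandin E2, FGF10, EGF, gastrin, Y-27632, nicotinamide and N-acetyl-L-cysteine plus WNT3a, R-spondin-1 and noggin, the last 3 later as conditioned medium. Primary pancreas 1 and 2 came from a wild-type and an INS-eGFP pig of the same late postnatal age (eGFP driven by the insulin promoter), processed on different days, and were taken to be the first and second sample of the study's methods. Ducts were isolated by hand for the first, while DBA-binding cells, INS-eGFP cells and the whole suspension were pooled for the second. All cells were sorted alive. Culture and group coincide, so that the effects of culture, medium and cell composition cannot be told apart, and p-values measure only the spread between these libraries.

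Libraries held 87043349 to 366263504 unique molecular identifiers (UMIs, counted transcript molecules), and pairs of libraries shared 10 to 23 cell barcodes. After filtering, 8885 and 7337 PPDO cells remained, and 2165 and 1188 ductal-like cells among 5671 and 4261 primary cells. Median UMIs per cell were 34176 and 34459 in PPDO and 17871 and 20558.5 in ductal-like cells. The 8 ductal markers found in the files, none of them at 0, summed to 1039.6 and 920.2 UMIs per 1000000 UMIs of the sum (CPM) in PPDO against 27452 and 30950.2 in ductal-like cells. SLC4A4, 1 of these markers, alone took 2.59% of UMIs in a ductal-like sum, most of the total of the markers there. The gap therefore does not describe the other ductal markers. The 7 basal epithelial markers summed to 8934 and 11597 CPM in PPDO and 181 and 135 in ductal-like cells, and the part of this difference in cell state in the results was not tested. Insulin RNA took 0.00995% of UMIs in ductal-like cells of primary pancreas 1 and 0.775% in those of primary pancreas 2, and its part was not tested either.

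The first question was how much of the transcript pool these genes take up in PPDO and in the duct cells of the organ. Member genes made up 1.14% and 1.16% of UMIs in PPDO, and 1.14% and 1.40% in ductal-like cells, or 1.15 ± 0.0115 against 1.27 ± 0.188 percent (mean ± SD, n = 2 each). The groups overlapped, as ductal-like cells of primary pancreas 1 lay just below both PPDO libraries and those of primary pancreas 2 above them. The log2 ratio of the group means was -0.15, and the exact two-sided permutation test gave p = 1, where the smallest p that 2 against 2 libraries allow is 0.33. Ribosomal protein genes took 19.5% and 18.9% of UMIs in PPDO but 5.13% and 5.68% in ductal-like cells. With these and the mtDNA genes left out of the total, the member share was 1.42% and 1.43% in PPDO against 1.21% and 1.50%, and the log2 ratio was 0.08. With genes over 1% of UMIs left out, it was 1.22% and 1.24% in PPDO against 1.33% and 1.55%, both PPDO libraries below both ductal-like sums. Whether the groups overlapped in total share thus depended on the scale. The ductal-like sum of primary pancreas 1 also held cluster 6, with 0.309% of all UMIs on members in 467 cells. Its larger clusters 2 and 5 had 1.15% and 1.32%, and cluster 0 of primary pancreas 2 had 1.45%. The place of primary pancreas 1 below both PPDO libraries on all UMIs thus depended on cluster 6 as well. By complex, PPDO and ductal-like cells overlapped for complex I, at 0.361% and 0.376% against 0.306% and 0.365% of UMIs. PPDO lay below both ductal-like sums for complex II, at 0.0293% and 0.0313% against 0.0442% and 0.0580%, for complex III, at 0.0737% and 0.0751% against 0.0795% and 0.0985%, and for complex IV, at 0.279% and 0.275% against 0.319% and 0.392%. For ATP synthase the values were 0.373% and 0.376% against 0.368% and 0.462%, with 1 ductal-like sum below and 1 above both PPDO libraries. These shares are on all UMIs, and with ribosomal protein and mtDNA genes left out of the total both PPDO values lay above both ductal-like values for complex I, at 0.451% and 0.466% against 0.325% and 0.389%. On that scale they stayed below both for complex II, at 0.0366% and 0.0388% against 0.0470% and 0.0619%, but overlapped them for complex III, at 0.0920% and 0.0931% against 0.0845% and 0.105%, and for complex IV, at 0.349% and 0.341% against 0.339% and 0.418%.

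**Figure D1:**
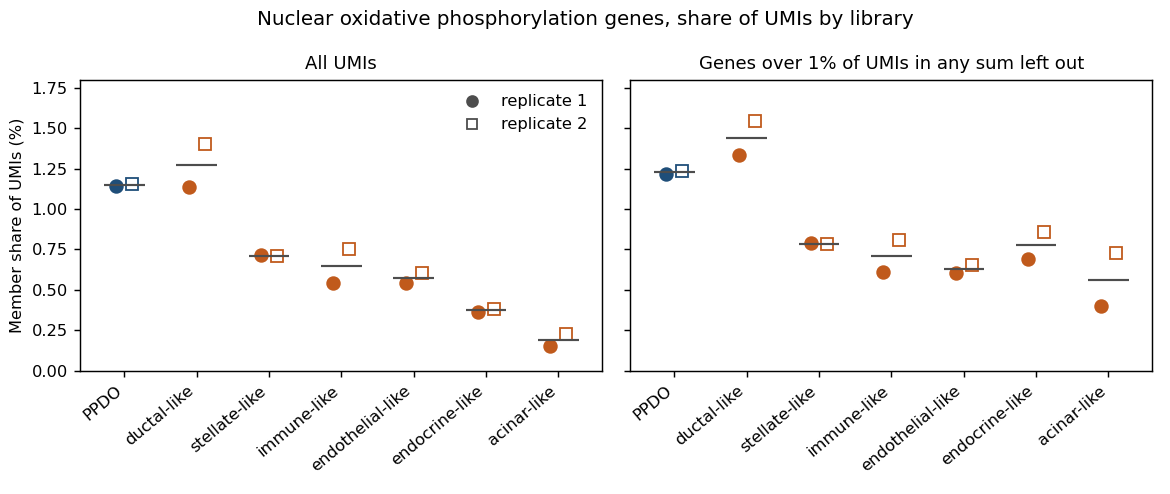
Share of UMIs on the 73 member genes in percent, for PPDO and 6 primary cell classes, on all UMIs (left) and with genes over 1% of UMIs left out (right). Filled circles are replicate 1, open squares replicate 2 and bars the mean of both libraries: PPDO and ductal-like cells sit highest on both scales, and acinar-like cells have 0.151% and 0.225% of all UMIs.

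Behind a similar total, single genes differed. In edgeR's quasi-likelihood test on sums per library, with trimmed-mean (TMM) scaling and an adjusted p under 0.05, 29 of the 73 members were higher and 6 lower in PPDO than in ductal-like cells, 39.7% and 8.22% of the members. Of all 23539 genes tested, 22.9% were higher and 20.9% lower. The median log2 fold change was 0.36 over the members and 0.01 over all genes. This balance depended on the scaling. Without TMM factors 11 members were higher and 13 lower, beside 13.8% and 29.5% of all genes, with medians of -0.11 and -0.45. With each library scaled to its own member UMIs, 16 were higher and 10 lower, beside 16.8% and 27.4% of all genes.

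Under all 3 scalings, 11 members were higher, namely COX7A2L, COX7A2, ATP5MC3, NDUFC2, NDUFA2, NDUFB9, NDUFB10, NDUFS3, NDUFS5, NDUFAF3 and NDUFAF4, and 6 were lower, namely COX7A1, COX4I2, NDUFA4, NDUFS1, SDHB and UQCRQ. Of the 15149 tested genes with a symbol, 15.9% were higher and 21.1% lower under all 3. On plain CPM, both PPDO libraries were above both ductal-like sums for 19 members and below both for 29, and the groups overlapped for 25, where 28.8% of the 15224 tested genes with a symbol were above both and 49.1% below both. With PPDO 1 left out the median log2 fold change was 0.42 over the members and -0.02 over all genes, and with PPDO 2 left out 0.29 and -0.01. These fits leave 1 library in the PPDO group, so that their counts of called genes were not read.

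**Figure D2:**
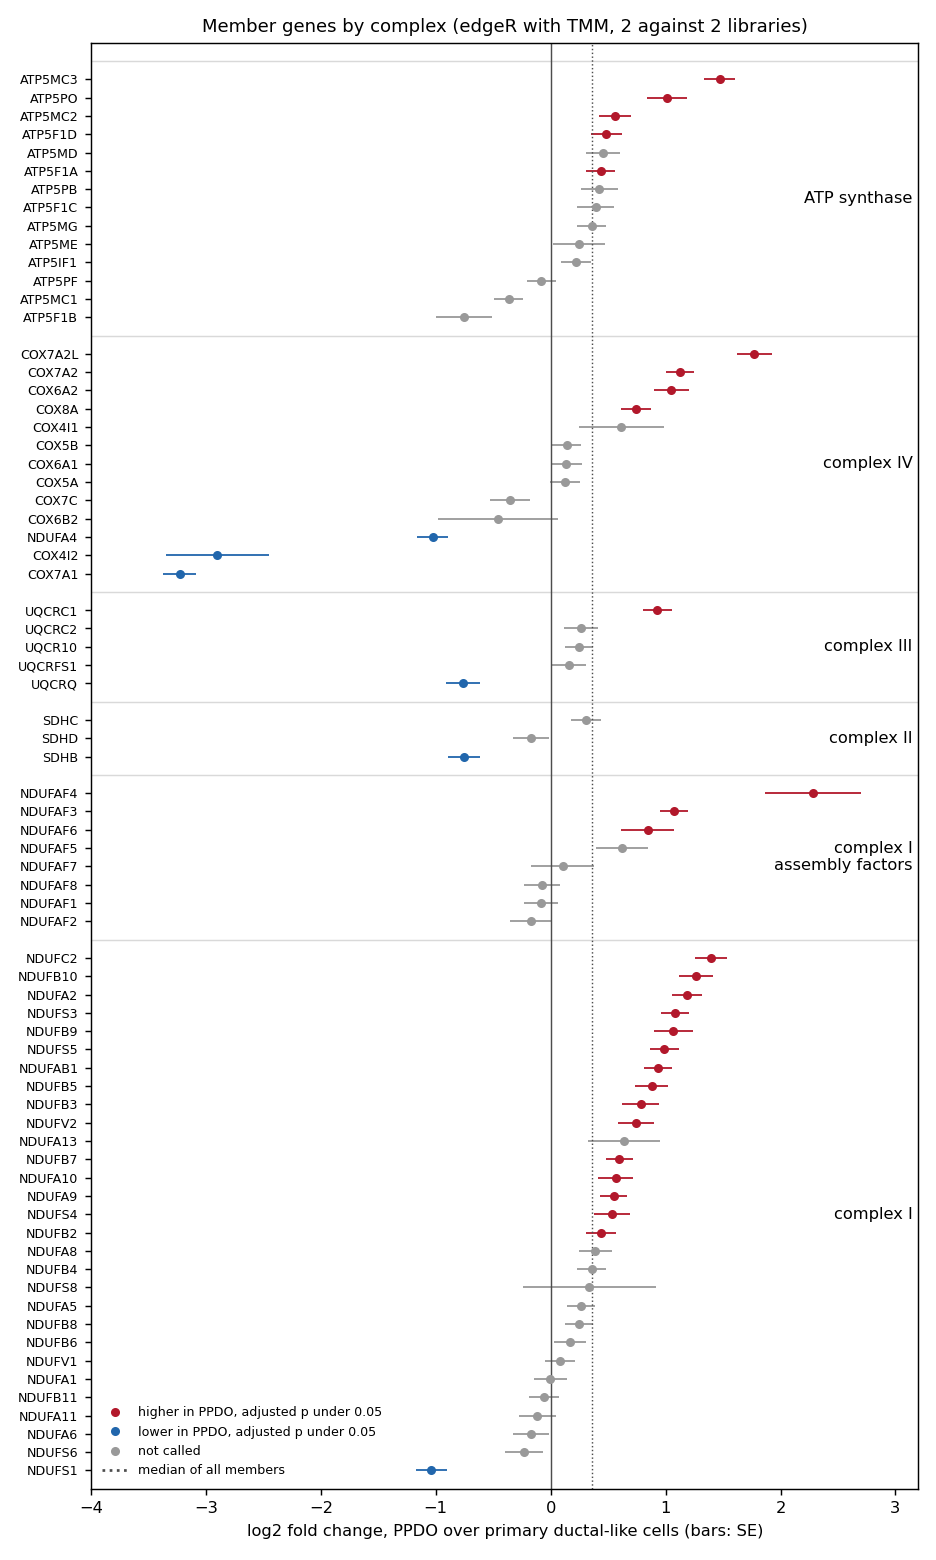
Log2 fold change of single members, PPDO over primary ductal-like cells, from edgeR with TMM scaling, with bars of 1 standard error, grouped by complex. Red genes were higher and blue genes lower at an adjusted p under 0.05, and the dotted line marks the median of all 73 members, 0.36: COX7A1 and COX4I2 lie far to the left of all others.

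Complex I, the NADH dehydrogenase and the largest of the groups, held most of the higher genes. Of its 30 subunit genes 16 rose, 1 fell and 13 did not pass the test, beside 22.9% higher and 20.9% lower among all genes. The median log2 fold change was 0.54. Without TMM factors 6 of these genes rose and 3 fell, beside 13.8% and 29.5% of all genes. NDUFS5, the subunit gene of the complex with the highest mean CPM, was at 308 and 297 CPM in PPDO and 199 and 220.2 in ductal-like cells. Both PPDO values exceeded both primary values, with a log2 fold change of 0.99 ± 0.13 (SE, adjusted p = 0.00490, edgeR, n = 2 against 2). NDUFC2, a membrane arm subunit, showed the largest rise among its members, from 128 and 149 to 253 and 275 CPM (log2 fold change 1.40, adjusted p = 0.00259, edgeR). NDUFS1, which carries iron-sulfur clusters of the electron path, went the other way. It stood at 103 and 140.1 CPM in ductal-like cells and 43.8 and 41.5 in PPDO, a log2 fold change of -1.04 (adjusted p = 0.00509, edgeR). With single libraries left out that change was -1.18 to -0.96. Among the genes matched through the gene name table, NDUFA7 was at 257 and 264 CPM in PPDO against 63.0 and 65.2, a log2 fold change of 2.48 (adjusted p = 0.00089, edgeR). NDUFS8, an iron-sulfur subunit, had hardly any UMIs, at 0.185 and 0.591 CPM in ductal-like cells and 0.276 and 0.385 in PPDO. The cause of its low counts was not tested.

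Of the 8 assembly factors, which help build complex I and are not part of the finished enzyme, 3 rose and 0 fell in edgeR's test, and 0 were lower at an unadjusted p under 0.05 or by DESeq2. Of all genes 22.9% rose and 20.9% fell in edgeR's test. Without TMM factors 2 of the 8 rose, beside 13.8% of all genes. NDUFAF3 had the highest mean CPM of them, with 89.99 and 88.2 CPM in PPDO and 54.8 and 61.9 in ductal-like cells (log2 fold change 1.07, adjusted p = 0.00372, edgeR). NDUFAF4 had few UMIs, with 5.86 and 6.13 CPM against 2.08 and 1.18. Its log2 fold change of 2.28 ± 0.42 (adjusted p = 0.0135, edgeR) was 1.84 to 2.88 with single libraries left out. NDUFAF2, with the lowest fold change of the group, was at 45.6 and 42.1 CPM in PPDO and 53.7 and 84.3 in ductal-like cells and did not pass the test (adjusted p = 0.466, edgeR).

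Complex II, succinate dehydrogenase, is also an enzyme of the TCA cycle and has no subunit from mtDNA. Both genes of its catalytic part, SDHA and SDHB, were lower in PPDO, whereas the membrane anchors SDHC and SDHD did not pass the test. SDHB was at 102 and 104 CPM in PPDO against 205 and 277 in ductal-like cells. Its log2 fold change was -0.76 ± 0.14 (adjusted p = 0.0131, edgeR), or -0.89 to -0.68 with single libraries left out. SDHA, named through the gene name table, was at 39.3 and 38.8 against 107 and 132 CPM (log2 fold change -1.14, adjusted p = 0.00316, edgeR). For both genes PPDO lay below both ductal-like sums. SDHC was at 94.4 and 95.5 CPM in PPDO and 91.8 and 121 in ductal-like cells (log2 fold change 0.31, or -0.16 without TMM factors). SDHD was at 97.0 and 114 against 146 and 183 CPM (log2 fold change -0.17, adjusted p = 0.424, edgeR), and was called lower without TMM factors (-0.64) and when scaled to member UMIs (-0.49). Whether anchors and catalytic part moved differently was not tested.

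In complex III, the cytochrome c reductase, 1 of 5 members rose and 1 fell, near the 22.9% and 20.9% of all genes. UQCRC1, a core protein, was at 216 and 209 CPM in PPDO and 146 and 161 in ductal-like cells (log2 fold change 0.93, adjusted p = 0.00574, edgeR), and missed the threshold without TMM factors (0.47, adjusted p = 0.0571). UQCRQ, a small ubiquinone-binding subunit, was at 94.3 and 90.3 CPM in PPDO against 179 and 257 (log2 fold change -0.77, adjusted p = 0.0154, edgeR). With single libraries left out the log2 fold changes were 0.85 to 0.94 for UQCRC1 and -0.94 to -0.64 for UQCRQ. UQCR10, with the highest mean CPM of the complex, was at 201 and 201 CPM in PPDO and 207 and 261 in ductal-like cells. Its log2 fold change of 0.25 did not pass the test and was -0.22 without TMM factors.

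Complex IV, cytochrome c oxidase, carried the widest spread, from a log2 fold change of -3.23 to 1.77 among 13 members. Of these 4 rose and 3 fell, beside 22.9% and 20.9% of all genes. Without TMM factors the counts were 2 and 4, beside 13.8% and 29.5% of all genes. COX7A1 was at 264 and 358 CPM in ductal-like cells and 24.2 and 23.7 in PPDO, a log2 fold change of -3.23 ± 0.15 (adjusted p = 0.000518, edgeR). COX7A2 went the opposite way, from 226 and 284 to 417 and 389 CPM (1.13, adjusted p = 0.00342, edgeR). The ratio of both genes within a library does not depend on scaling. COX7A1 made up 53.9% and 55.8% of the UMIs of the pair in ductal-like cells and 5.49% and 5.73% in PPDO, and the groups did not overlap. COX7A2L, a related protein that joins complexes III and IV into supercomplexes, rose from 113 and 125 to 281 and 310.1 CPM (1.77, adjusted p = 0.00174, edgeR). These 3 calls held under every alternative tried.

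NDUFA4, a complex IV subunit first assigned to complex I, was among the most abundant members in duct cells. It was at 756 and 864 CPM in ductal-like cells and 314 and 265 in PPDO, a log2 fold change of -1.03 ± 0.14 (adjusted p = 0.00553, edgeR), which was -1.12 to -0.95 with single libraries left out. Its paralogue NDUFA4L2, a hypoxia-induced gene left out of the members by the rule, showed the reverse with 161 and 317 CPM in PPDO against 0.370 and 0.315, the latter from 16 and 8 UMIs. Of the UMIs of this pair NDUFA4L2 took 34.0% and 54.5% in PPDO and 0.0489% and 0.0365% in ductal-like cells. COX4I2, a form of subunit 4 linked to low oxygen, had few UMIs in both, with 2.10 and 1.94 CPM in PPDO and 11.7 and 31.3 in ductal-like cells. Its log2 fold change of -2.90 ± 0.45 (adjusted p = 0.00814, edgeR) was -2.22 without primary pancreas 2 and -3.42 without primary pancreas 1.

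The usual form of that subunit, COX4I1, was at 6.19 and 5.11 CPM in PPDO and 6.06 and 3.79 in ductal-like cells. This was far under most other subunits, for a cause that was not tested, so that no ratio of both forms was read. COX8A, the complex IV gene with the highest mean CPM, was at 649 and 602 CPM in PPDO and 487 and 539.6 in ductal-like cells (log2 fold change 0.74, adjusted p = 0.0114, edgeR). It missed the threshold without TMM factors (0.29, adjusted p = 0.187, edgeR), and its log2 fold change was 0.67 to 0.76 with single libraries left out. COX6A1 was at 271 and 283 CPM against 305 and 392 (0.14, or -0.33 without TMM factors, neither past the threshold). COX6A2, its heart and muscle form, was at 39.1 and 37.9 CPM in PPDO against 21.5 and 30.1 (1.05, adjusted p = 0.00695, edgeR, but 0.0932 without TMM factors), and made up 12.6% and 11.8% of the pair in PPDO against 6.59% and 7.12%. The muscle forms COX7A1 and COX6A2 thus differed in direction, in TMM scaling and in these ratios. COX6B2, a testis form, was at 0.485 and 0.488 CPM in PPDO and 0.486 and 1.46 in ductal-like cells. COX7B, from the gene name table, was at 305 and 289 against 398 and 486 CPM (-0.11, adjusted p = 0.507, edgeR), and was called lower without TMM factors (-0.57, adjusted p = 0.0427).

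**Figure D3:**
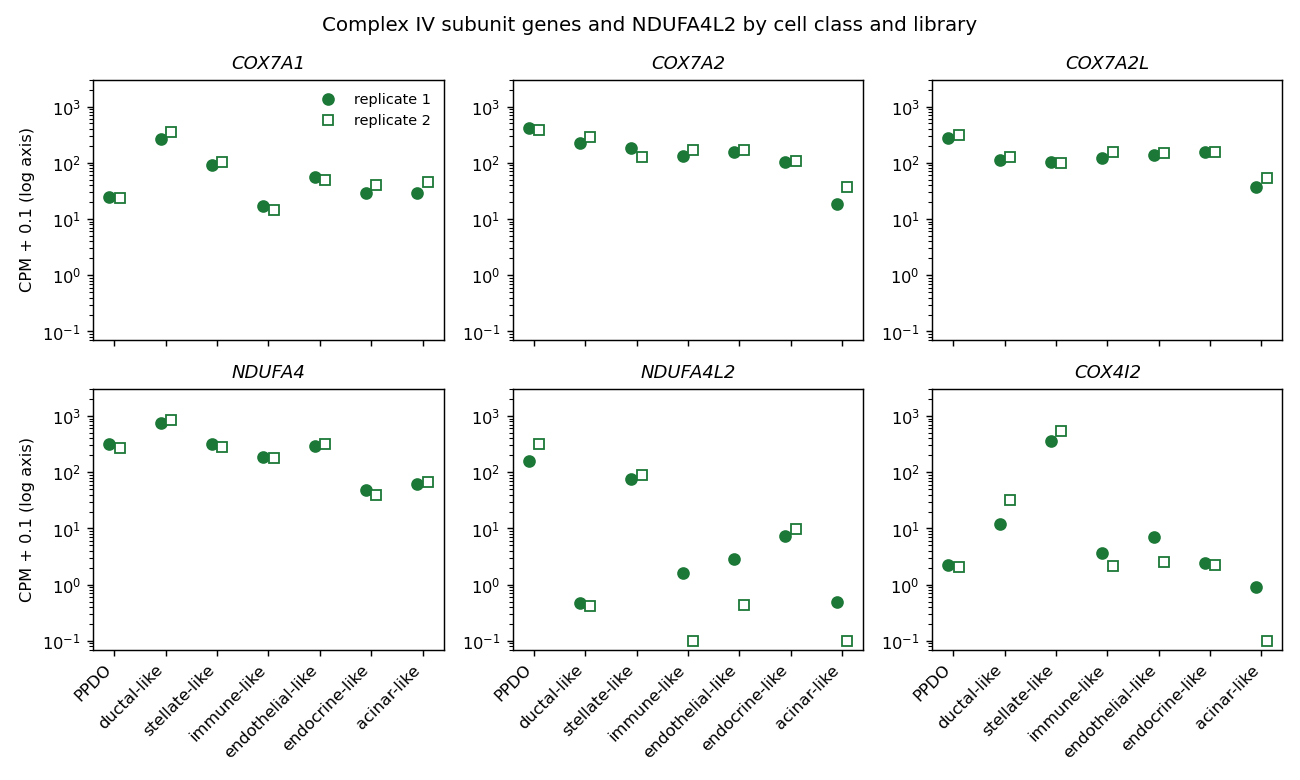
CPM plus 0.1 on a log axis for 5 complex IV or supercomplex genes and NDUFA4L2 in PPDO and 6 primary classes, with filled circles for replicate 1 and open squares for replicate 2. COX7A1 and NDUFA4 are highest in ductal-like cells, NDUFA4L2 in PPDO and COX4I2 in stellate-like cells.

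Of the 14 ATP synthase members 5 rose, 0 fell and 9 did not pass edgeR's test, while 2 were lower at an unadjusted p under 0.05 and 1 by DESeq2. Of all genes 22.9% rose and 20.9% fell in edgeR's test. Without TMM factors 1 of the 14 rose and 3 fell, beside 13.8% and 29.5% of all genes. The ring that turns in the membrane is built from subunit c, for which 3 genes encode the same mature protein. ATP5MC3 rose from 153 and 172 to 317 and 337 CPM (log2 fold change 1.47, adjusted p = 0.00226, edgeR). ATP5MC1 was at 137 and 138 CPM in PPDO against 218 and 272 (-0.37, adjusted p = 0.0704, edgeR), and was called lower when scaled to member UMIs (-0.69, adjusted p = 0.0126). Of the UMIs of these 2 genes, ATP5MC1 took 30.2% and 29.0% in PPDO and 58.8% and 61.3% in ductal-like cells, with no overlap. ATP5MC2 was at 275 and 292 against 233 and 299.8 CPM, overlapping, and its call (0.56, adjusted p = 0.0299, edgeR) was lost with the replicate block (adjusted p = 0.0657) and without TMM factors. Its log2 fold change was 0.46 to 0.63 with single libraries left out.

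ATP5F1B, the catalytic beta subunit, was at 254 and 188 CPM in PPDO and 379.8 and 662 in ductal-like cells (-0.76, adjusted p = 0.0649, edgeR). Both PPDO values were below both primary values, and the log2 fold change was -1.05 to -0.47 with single libraries left out. ATP5F1B was called lower without TMM factors (-1.24, adjusted p = 0.0253, edgeR) and when scaled to member UMIs (-1.06, adjusted p = 0.0301). ATP5PF, with the highest mean CPM of the group, was at 323 and 329 against 430.1 and 524 CPM (-0.08, adjusted p = 0.623, edgeR), and was called lower without TMM factors (-0.55, adjusted p = 0.0465). ATP5IF1, the inhibitor of the enzyme, was at 300.4 and 306 against 339 and 377 (0.22, adjusted p = 0.228, edgeR, or -0.24 without TMM factors).

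Genes around the module were read from lists, beside the 22.9% of all genes that rose and the 20.9% that fell (13.8% and 29.5% without TMM factors). Of 13 mtDNA-encoded subunits, 8 were at 0 in every sum and 5 could be tested. The counts of 0 were not read as absence of these RNAs. Every share of mtDNA genes given here rests on the other 5 and does not measure all mitochondrial RNA. CYTB, the cytochrome of complex III, fell from 148 and 96.2 to 8.64 and 11.8 CPM (log2 fold change -3.15, adjusted p = 0.00431, edgeR). ND5, the most abundant of these 5, was at 2814 and 2922 CPM in PPDO and 5399 and 3295 in ductal-like cells (-0.18, adjusted p = 0.707, edgeR). Of 12 electron carriers and mitochondrial membrane partners, 7 rose and 0 fell (edgeR; 0 lower also at an unadjusted p under 0.05 and by DESeq2). Without TMM factors and when scaled to member UMIs 5 rose and 1 fell, ETFA of the electron transfer flavoprotein (-0.88 and -0.73, against -0.41 with TMM). Genes that rose with TMM included cytochrome c (CYCS, log2 fold change 1.14), the ADP/ATP carrier SLC25A6 (1.67) and the channel VDAC2 (1.31). Of 30 assembly factors outside the naming rule 4 rose and 2 fell, a balance that turned to 3 and 5 without TMM factors.

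Of 19 TCA cycle genes 2 rose and 4 fell, beside 22.9% and 20.9% of all genes. Without TMM factors the counts were 1 and 8, beside 13.8% and 29.5%. IDH2 (log2 fold change -1.41), DLST (-1.25) and DLD (-0.86), enzymes on the path from isocitrate to succinyl-CoA, were among those that fell. IDH3A, on the same path, was called higher (0.56, adjusted p = 0.0374, edgeR) but not without TMM factors (0.10), and OGDH did not pass the test (0.41). Pyruvate carboxylase (PC), which refills the cycle, rose from 2.27 and 4.61 to 41.6 and 43.1 CPM (4.13, adjusted p = 0.00148, edgeR). Among 15 regulators of mitochondrial biogenesis, 3 rose and 3 fell, near the 22.9% and 20.9% of all genes. The coactivator PPARGC1A was at 449 and 665 CPM in ductal-like cells and 0.362 and 0.290 in PPDO, with a log2 fold change of -10.26, and the receptors ESRRA and ESRRG also fell (-1.96 and -3.29). Those that rose were the related coactivators PPARGC1B (2.32) and PPRC1 (1.22) and the mtDNA transcription factor TFB2M (1.80). NRF1 (-0.12, adjusted p = 0.529, edgeR) and TFAM (0.15, adjusted p = 0.411), which act on nuclear subunit genes and on mtDNA, did not pass the test.

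Of 21 genes of glycolysis and its switch, 15 rose and 1 fell, beside 22.9% and 20.9% of all genes. LDHA, which turns pyruvate into lactate, went from 27.0 and 28.2 to 454 and 505 CPM, a log2 fold change of 4.58 (adjusted p = 0.000399, edgeR). PDK1, a kinase that inhibits pyruvate dehydrogenase, had a log2 fold change of 3.83, and its relative PDK4 of -9.08. For comparison, 64 of 74 ribosomal protein genes rose. With these genes left out of the fit 26 members were higher and 6 lower in PPDO, beside 22.3% and 21.6% of all genes, with median log2 fold changes of 0.32 over the members and -0.02 over all genes.

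Within PPDO the module was not evenly spread. Clusters are given by number and leading genes, as a description with no test. Cluster 3, led by ADM, TIMP3, EGLN1 and BNIP3, several of them genes induced by low oxygen, had the lowest member share, 0.746% in PPDO 1 and 0.846% in PPDO 2. It held 1176 cells of PPDO 1 and 153 of PPDO 2, and its mtDNA genes took 0.105% and 0.201% of UMIs, a part that was not tested. Cluster 1, led by IGFBP6, PTGS2 and NDUFA4L2, followed with a member share of 0.932% and 1.01%. At the other end, dividing cells of cluster 4 (CENPF, TOP2A) had 1.47% and 1.39%, and cluster 6 (DTL, UHRF1, MCM3), led by DNA replication genes, 1.33% and 1.26%. The order at both ends was the same in both libraries, while clusters 0, 2, 5 and 7 lay between 1.10% and 1.25% and changed places.

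Other measures moved with this order at its low end but not at its high end. Median UMIs per cell were lowest in clusters 3 and 1, at 19110 and 29281. Cluster 4 had 34539.5, below the 43456.5 of cluster 6 and the 43623 of cluster 2. Ribosomal protein genes took 24.9% and 22.3% of UMIs in cluster 3 and 21.1% and 20.4% in cluster 1. They took 18.0% and 18.1% in cluster 4, above the 17.3% and 16.7% of cluster 5. The part of these measures in the member shares was not tested. With ribosomal protein and mtDNA genes left out of the total the member share was 0.995% and 1.09% in cluster 3 and 1.81% and 1.71% in cluster 4. Of the 73 members, 65 were lower in cluster 3 than in cluster 4 in both libraries, and 64 lower than in cluster 0, led by CXCL14, beside 56.9% and 58.2% of the 15224 tested genes with a symbol. NDUFA4 had 111 and 126 CPM in cluster 3 and 518 and 377 in cluster 4. COX7A1 lay between 14.9 and 25.8 CPM in clusters 0 to 6 and reached 49.4 and 53.9 in cluster 7, led by SPP1 and KRT4, the one PPDO cluster whose best-matching marker list was ductal. All of these stayed under the COX7A1 CPM of the ductal-like sums of both primary libraries. With cluster 7 as the sole PPDO cells, 17 of 72 tested members were higher than in ductal-like cells and 7 lower, or 23.6% and 9.72%, beside 20.5% and 21.3% of all genes.

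**Figure D4:**
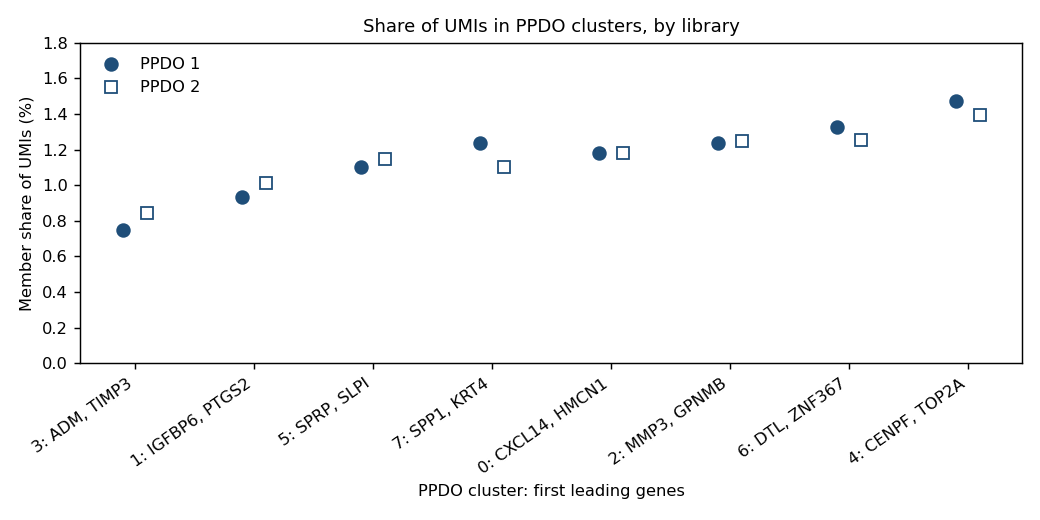
Share of UMIs on the 73 members in percent for the 8 PPDO clusters, ordered by their mean, with filled circles for PPDO 1 and open squares for PPDO 2. Values run from 0.746% in cluster 3 to 1.47% in cluster 4.

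The next comparison was between cell classes of the organ, each against ductal-like cells of the same library. The classes were uneven in size. Primary pancreas 1 and 2 held 752 and 48 stellate-like, 709 and 138 immune-like and 1072 and 264 endothelial-like cells. They held 101 and 2203 endocrine-like and 257 and 56 acinar-like cells. Among the named classes ductal-like cells had the highest share, 1.14% and 1.40%, while cells left unnamed had 1.36% and 0.422%. Stellate-like cells, the mesenchymal class, had 0.713% and 0.710%, immune-like cells 0.543% and 0.751%, endothelial-like cells 0.542% and 0.601%, hormone-making endocrine-like cells 0.364% and 0.384%, and enzyme-making acinar-like cells 0.151% and 0.225%. Stellate-like, immune-like and endothelial-like cells did not keep their order across both libraries, whereas ductal-like cells were highest, endocrine-like cells second lowest and acinar-like cells lowest in each. Ductal-like cells exceeded acinar-like cells 7.54-fold and 6.25-fold, endocrine-like cells 3.12-fold and 3.66-fold, and the other 3 classes 1.60-fold to 2.34-fold.

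Secretory cells spend many UMIs on a few products, and insulin alone took 37.8% and 52.8% of those in endocrine-like cells. With genes over 1% of UMIs left out, the excess of ductal-like over endocrine-like cells was 1.93-fold and 1.80-fold and that over acinar-like cells 3.35-fold and 2.12-fold. Counted as member UMIs per cell, ductal-like cells had 227 and 299.8, endocrine-like cells 61.0 and 148, acinar-like cells 14.8 and 50.6, and the other 3 classes 44.5 to 81.1. Depth differed between classes, with means of 19966 and 21347 UMIs per cell in ductal-like and 16741 and 38582 in endocrine-like cells. Means were 9801 and 22549 in acinar-like cells and 8211 to 11235 in the other 3 classes. In primary pancreas 2 insulin also took 1.31% of UMIs in acinar-like, 1.42% in stellate-like, 1.19% in immune-like and 1.04% in endothelial-like cells. In primary pancreas 1 these classes had at most 0.0244%. No correction for free RNA (RNA outside cells) was applied here, and its part in the class contrasts was not tested.

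Gene by gene, 71 members could be tested across the 6 classes, with the library as a term. Members lower than in ductal-like cells numbered 33 in endocrine-like cells, beside 16.1% of the 16976 genes tested, 38 in acinar-like (15.5% of all genes), 34 in endothelial-like (18.3%), 22 in stellate-like (14.6%) and 34 in immune-like cells (22.4%). In the same order those were 46.5%, 53.5%, 47.9%, 31.0% and 47.9% of the members. At a clustering resolution of 1.0 the counts were 49 in stellate-like (15.2% of all genes) and 24 in acinar-like cells (15.3%), and with the large unnamed cluster counted as acinar-like 38 (16.0%) and 59 (18.3%), so that the order of these classes by count was not settled. Higher than in ductal-like cells were 1 member in endocrine-like (17.4% of all genes), 1 in endothelial-like (18.3%), 2 in stellate-like (16.7%) and 0 in acinar-like (9.51%) or immune-like cells (19.2%). In these last classes 1 and 1 were higher at an unadjusted p under 0.05 in edgeR, and 2 and 2 by DESeq2. The median log2 fold change of the members ran from -1.14 in acinar-like to -0.84 in endocrine-like cells, where that of all genes was -0.51 and -0.01. At a clustering resolution of 1.0 the acinar-like medians lay close together, at -0.72 over the members and -0.68 over all genes. The endocrine-like medians were then -0.83 and -0.01. Without TMM factors the members' medians in acinar-like and endocrine-like cells were -2.71 and -1.64, beside -2.003 and -0.86 for all genes. On that scale 59 and 68 members were lower in endocrine-like and acinar-like cells, beside 38.4% and 59.9% of all genes.

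**Figure D5:**
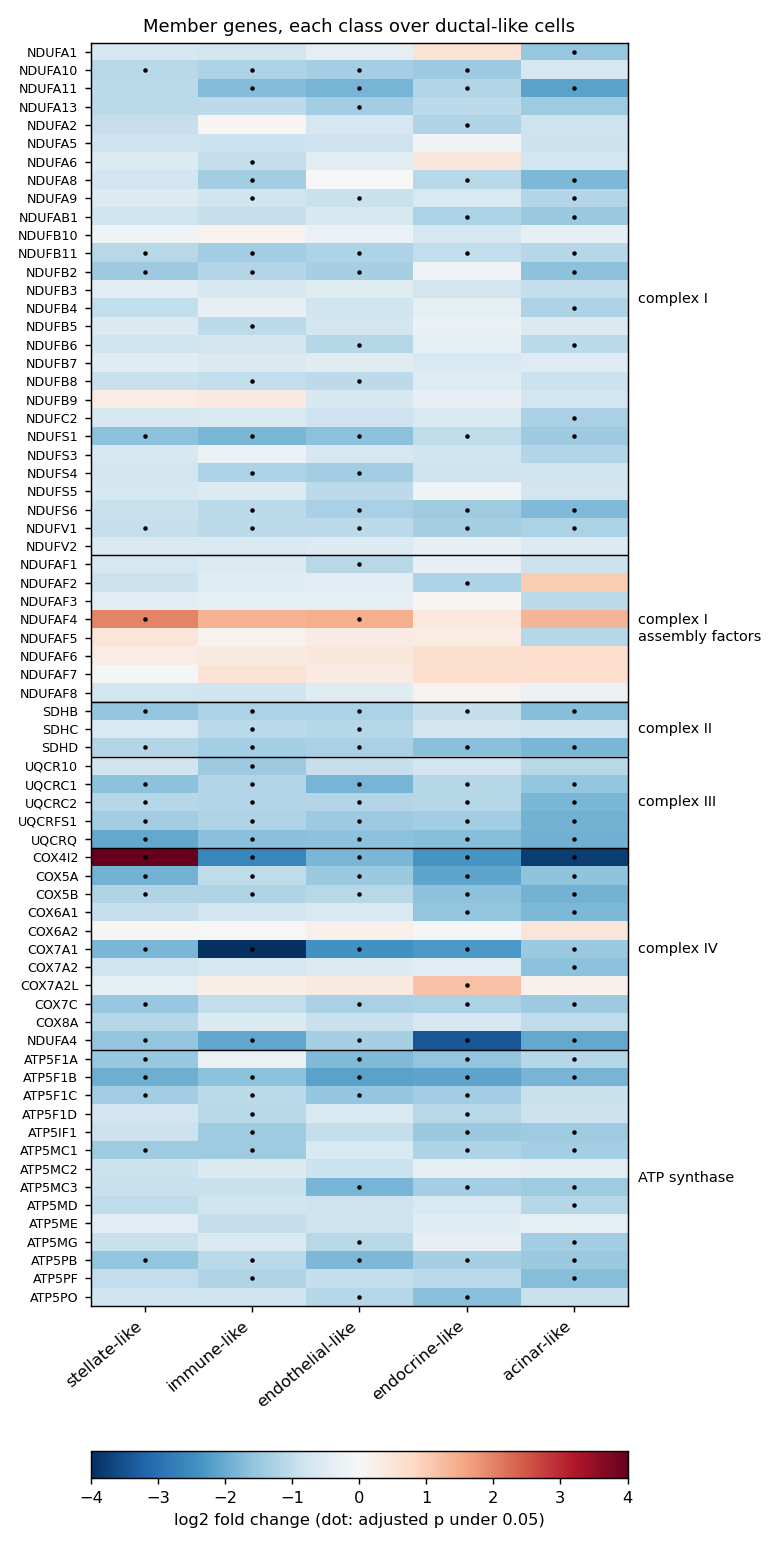
Log2 fold change of single members in 5 primary classes over ductal-like cells (edgeR, blue lower and red higher), with dots where the adjusted p was under 0.05 and lines between complexes. The colour scale ends at 4, which COX4I2 in stellate-like (4.24) and COX7A1 in immune-like cells (-4.18) exceed, and COX4I1, at 0 in acinar-like cells, is left out.

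In all 5 contrasts 16 members were lower, among them NDUFB11, NDUFS1 and NDUFV1 of complex I, SDHB and SDHD of complex II, UQCRC1, UQCRC2, UQCRFS1 and UQCRQ of complex III, COX5A, COX5B, COX7A1 and NDUFA4 of complex IV, and ATP5F1B and ATP5PB of ATP synthase. Of the 13183 tested genes with a symbol, 3.40% were lower in all 5. For 19 of the 71 tested members no contrast was called lower, beside 61.1% of those genes. Of the 8 assembly factors, at most 1 was called lower in any class, beside 14.6% to 22.4% of all genes, and their medians lay between -0.25 and 0.22. With 8 genes, such counts do not set them apart from all genes. On CPM, 56 of the 73 members were higher in ductal-like cells than in each of the 5 other classes in both libraries, as were 19.2% of the tested genes with a symbol.

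COX7A1 was called lower in all 5 classes. Against 264 and 358 CPM in ductal-like cells it had 90.4 and 101 in stellate-like, 55.3 and 49.3 in endothelial-like, 29.4 and 45.1 in acinar-like, 29.0 and 40.6 in endocrine-like and 17.2 and 14.1 in immune-like cells. The log2 fold change was -4.18 in immune-like cells (adjusted p = 1.08e-06, edgeR) and -2.42 in endothelial-like cells (adjusted p = 0.000125, edgeR). As a share of the pair with COX7A2 it was 53.9% and 55.8% in ductal-like cells, 61.2% and 54.8% in acinar-like cells, which held few UMIs of the pair, 33.1% and 44.0% in stellate-like and 11.5% and 7.64% in immune-like cells. PPDO, at 5.49% and 5.73%, lay under each of these 6 classes in this ratio.

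NDUFA4 was lowest in endocrine-like cells, at 48.5 and 39.2 CPM against 756 and 864 in ductal-like cells (log2 fold change -3.43, adjusted p = 4.68e-06, edgeR). Endocrine-like cells were also the class in which COX7A2L was called higher, with 156 and 157 CPM against 113 and 125 (1.18, adjusted p = 0.0189, edgeR), a call lost without TMM factors (0.40) and without the low-count filter (adjusted p = 0.0907). ATP5F1B had 88.5 and 123 CPM in endothelial-like cells against 379.8 and 662 (-2.15, adjusted p = 0.000276, edgeR) and 119.7 and 173 in stellate-like cells (-1.95). UQCRQ, at 51.1 and 64.5 CPM in stellate-like cells, had a log2 fold change of -2.03 (adjusted p = 0.000697, edgeR). COX4I1 had 0 UMIs among 3781546 in acinar-like cells, where a floor of 3 UMIs over both libraries is 0.793 CPM, at least 6.58-fold lower than the 5.22 CPM of ductal-like cells. On the same scale the whole member share was 7.54-fold and 6.25-fold lower in acinar-like cells, so this bound does not set COX4I1 apart.

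Stellate-like cells stood apart for COX4I2, with 360.1 and 539 CPM against 11.7 and 31.3 in ductal-like cells (log2 fold change 4.24, adjusted p = 5.63e-06, edgeR), where endothelial-like cells had 7.06 and 2.40. Within that class it was 595 and 633 CPM in cluster 8, led by genes that include MYH11, ACTA2 and RGS5 of contractile mural cells, and 85.5 CPM in the primary pancreas 1 cells of cluster 11, led by DCN and LUM of fibroblasts. NDUFA4L2 was at 139.8 and 107 CPM in cluster 8 and at 0.650 in cluster 11. NDUFAF4 was the other member called higher in stellate-like cells, with 6.59 and 9.21 CPM against 2.08 and 1.18 (1.97, adjusted p = 0.0182, edgeR), from 44 and 4 UMIs against 90 and 30. It was also the member called higher in endothelial-like cells (1.46, adjusted p = 0.0480, edgeR), a call lost under several alternatives, among them doublets kept (adjusted p = 0.0595).

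Ductal-like cells were themselves mixed, and the libraries drew on different clusters. Clusters 2 and 5, from primary pancreas 1, had 1.15% and 1.32% of UMIs on members, and cluster 0, from primary pancreas 2 but for 1 cell, had 1.45%. Clusters 6 and 23, both named from ductal markers, had 0.309% in 467 cells of primary pancreas 1 and 0.236% in 64 cells of primary pancreas 2. Ribosomal protein genes were at 1.45% and 0.418% and mtDNA genes at 1.49% and 0.898% of UMIs in these, against 5.48% and 0.730% in cluster 2, and their part was not tested. PPARGC1A was at 488 and 975 CPM in clusters 6 and 23, and 374 in cluster 2. COX7A1 was at 57.3 and 11.7 CPM in clusters 6 and 23, against 253 in cluster 2, so that cluster 6 lay under the stellate-like sums and cluster 23 under every PPDO cluster. NDUFA4 was at 139 and 97.4 CPM there, against 757 in cluster 2. With the ductal-like clusters of 500 cells or more alone, 24 members were higher and 8 lower in PPDO, beside 22.7% and 20.7% of all genes.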

How the data were processed

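Single-cell RNA-seq (10x 3' chemistry) covered 2 PPDO and 2 primary pancreas libraries. The authors aligned reads and deposited raw UMI counts per feature and barcode (Cell Ranger 7.1.0 per the file headers, Sscrofa11.1 in the submitters' processing notes, an in-house annotation), before their SoupX correction of free RNA. A 3' count does not scale with transcript length. Here isoform and extension features were summed per gene, and 8 transgene features left out. Cells were kept at mtDNA limits of 3% (PPDO) and 8% (primary), with under 9000 features and over 1000 (PPDO), 400 and 800 (primary 1 and 2), with over 3000 UMIs in primary 2, and Scrublet doublets removed from primary libraries. Because 8 mtDNA genes had no counts, these limits rest on the other 5. Clusters (scanpy 1.11.5, leidenalg 0.10.2, resolution 0.5) were named from marker lists, in primary cells where the markers averaged over 0.5 in log2 fold, a limit set after clusters had been seen, and clusters of low UMI count with none of their best list's markers among the leading genes stayed unnamed. No doublet caller was run on PPDO.

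Counts were summed per library and class and tested with edgeR 4.0.16 (R 4.3.3; TMM, filterByExpr, Benjamini-Hochberg at 0.05, two-sided). Standard errors (SE) were derived from that test, as the size of the log2 fold change over the square root of its F statistic. DESeq2 1.42.0, other scalings, filters, clusterings and left-out libraries were alternatives. Some genes counted here are not reported by name. Members and gene lists were chosen with earlier results of these data known. Named genes were those with the highest mean CPM and the largest change each way per group, the largest class contrasts and a list of alternative forms. In tests on simulated data for the PPDO comparison, edgeR recovered 81.0% of 200 genes changed by a log2 fold of 2 and 0 changed by 1, among 23760 and 23790 genes. Every simulated gene had the same dispersion of 0.0914, the common value of the fit. These rates therefore do not describe genes with a smaller spread, and changes below a log2 fold of 1 were called in the data.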

Additional observations from a re-analysis of the deposited data

How the results depend on the processing

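Among alternatives for counts and shares, 135 values stayed near the reported one (counts within 1.5 times, shares within 1 SD between replicates) and 20 moved. For PPDO, members called higher numbered 11 without TMM factors, 16 when scaled to member UMIs, 17 with PPDO cluster 7 alone and 9 to 29 with single libraries left out. Members called lower numbered 13, 10 and 1 to 8 under no factors, member scaling and left-out libraries. Each fit with a library left out leaves 1 library in a group, so its counts of called genes are listed but were not read. The low ends came from the fit without PPDO 2, where fewer of all genes were called too. With single libraries left out the median log2 fold change was 0.27 to 0.42 over the members and -0.02 to 0.06 over all genes. With all libraries these medians were 0.36 and 0.01. With the replicate block 19 members were higher and 6 lower, beside 18.1% and 16.5% of all genes. Deviations of same-numbered libraries had a correlation of -0.00311 over 9407 genes, which with 2 libraries per group cannot decide on pairing. The study's methods name the organoid samples and the pancreas pigs by different ages, so a shared number does not mean a shared animal. The log2 share ratio of PPDO to ductal-like cells was 0.0772 with mtDNA and ribosomal genes left out and -0.29 to 0.0126 with single libraries left out.

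Between classes, members called in endocrine-like cells numbered 59 without factors (59 of them lower), and in acinar-like cells 68 without factors (68 lower), 24 at clustering resolution 1.0 and 61 with the large unnamed cluster counted as acinar-like, an alternative chosen after seeing the data, as were member scaling, ribosomal genes left out, the large ductal-like clusters and the 5 added genes. Stellate-like cells had 51 called and a log2 share ratio to ductal-like cells of -1.13 at resolution 1.0. With genes over 1% left out that ratio was -0.90 for endocrine-like and -1.42 for acinar-like cells. With either library alone it ran from -1.87 to -1.64 (endocrine-like), -2.91 to -2.64 (acinar-like), -1.22 to -1.07 (endothelial-like), -0.98 to -0.67 (stellate-like) and -1.07 to -0.90 (immune-like).

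Of values for named genes 702 kept direction and side of the threshold, 41 lost and 17 gained a call, and 10, none of them called, changed sign. The log2 fold changes that changed sign were SDHC -0.16, UQCR10 -0.22, COX6A1 -0.33 and ATP5IF1 -0.24 without factors, -0.0110, -0.0721, -0.18 and -0.10 with member scaling, and NDUFAF2 and COX6B2 with single libraries left out, from -0.41 to 0.0192 and from -1.05 to 0.31, above 0 without primary pancreas 2. The cause was not tested. Cluster borders also moved with the number of computing threads, and all values come from a single-threaded run.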

Other observations

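Schwann-like cells of primary pancreas 1, a class with a single cell in primary pancreas 2, had 0.673% of UMIs on members. The unnamed cluster 9, 342 cells of primary pancreas 2, had 0.273% with 1.70% of UMIs on mtDNA genes. Cluster 19, left unnamed for its median of 1371 UMIs per cell, had 1.42% in 145 cells of primary pancreas 1 and 3.21% in 21 cells of primary pancreas 2. NDUFA4 was at 898 and 2305 CPM in these. All unnamed cells together made up 4.76% and 8.52% of the primary cells. UQCR11, a complex III subunit named through the gene name table, was at 0.329 and 0.259 CPM in PPDO and 0.208 and 0.394 in ductal-like cells, and NDUFB1, of complex I, at 101 and 93.7 and 61.4 and 102 CPM.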
